A study of Homo sapiens with 12 samples.

Results

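The guide RNA against exon 13 of CD46 was compared with the other guides carried by the same effector, dCasRx-RBM25. The labels placed 2 libraries in the group RBM25_CD46, and 4 libraries, 2 of RBM25_NT and 2 of RBM25_MAPT, served as the comparators, out of 12 libraries in all. CasRx is an RNA-guided nuclease that cuts RNA, and dCasRx is its catalytically dead form, which binds the RNA its guide matches without cutting it. In RBM25_CD46 the guide was one for repression of CD46 exon 13, in RBM25_NT it was a nontargeting guide, and in RBM25_MAPT it was one for activation of exon 10 of MAPT. All 6 of these libraries came from HEK293T, a transformed human embryonic kidney line, after transfection of 200 ng of the dCasRx-RBM25 vector with 200 ng of a guide vector and collection of RNA after 48 hours. The other 6 libraries, used as background only, carried dCasRx alone with the nontargeting guide (dCasRx_NT) or an RBFOX1 fusion with the nontargeting or the MAPT guide (RBFOX1N_NT, RBFOX1N_MAPT), 2 of each. The series text calls the replicates biological, and nothing says whether they were transfected on separate days. No library paired the CD46 guide with dCasRx alone or with the RBFOX1 fusion, so binding of dCasRx at CD46 and the presence of RBM25 there cannot be told apart.

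CD46, or membrane cofactor protein, is a surface protein of nearly all nucleated human cells. It protects host cells from complement by serving as cofactor for factor I, which cleaves the complement fragments C3b and C4b. Several of its exons are alternative: exons 7, 8 and 9 encode the serine, threonine and proline rich stalk outside the membrane, and exon 13 decides between the cytoplasmic tails CYT-1 and CYT-2. When exon 13 is included the reading frame stops inside it and gives CYT-1, and when it is skipped the frame runs into exon 14 and gives CYT-2. RBM25 is a splicing factor that associates with the U1 snRNP, the particle that recognises 5′ splice sites, and is known for its role in the choice between the BCL2L1 isoforms.

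The sequences at issue are those around the CD46 tail exons, taken from the GENCODE v29 transcripts on GRCh38 (plus strand). Exon 13 lies at chr1:207790253-207790345 and is 93 nt long, in a gene spanning chr1:207752057-207795513. Exon 13 is shown up to the stop codon of CYT-1 (chr1:207790253-207790304), and exon 14 up to the stop codon of CYT-2 (chr1:207793519-207793591), with each stop codon in capitals. Exon 12 (chr1:207785619-207785682) is shown because an inner 3′ splice site within it was measured, and the 37 nt that this site removes are in capitals.
CD46 exon 12: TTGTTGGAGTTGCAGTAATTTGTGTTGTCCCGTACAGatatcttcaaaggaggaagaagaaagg
CD46 exon 13 to its stop codon: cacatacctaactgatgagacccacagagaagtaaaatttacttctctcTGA
CD46 exon 14 to its stop codon: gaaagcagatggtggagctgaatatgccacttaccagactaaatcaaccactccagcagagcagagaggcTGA
The capitals of exon 12 end in AG, the bases that close an intron. The motif CGGGCA, which RBM25 is known to bind, was searched on the transcribed strand and did not occur in exon 13. It was found in 1.38% of the 6668 tested cassette exons of 83 to 103 nt with an annotated sequence, and in 2.46% of all 39963 such exons. Neither the labels nor the files used here hold the sequence of the guide itself.

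Library totals ran from 32487927 to 53985468 counts, and in the 6 dCasRx-RBM25 libraries from 39428093 to 53985468. RBM25 took 4.08% to 5.69% of all counts in these 6 libraries and 0.02% to 0.0381% in the other 6, which separates the libraries labelled RBM25 from the others and does not tell dCasRx alone from the RBFOX1 fusion. Among the kidney and neuronal genes that HEK293T cells express, PAX2 was at 7.66 to 11.1 CPM (read counts scaled to the size of the library) and VIM at 621 to 835 CPM, while PAX8 had 0 to 2 counts. The blood, hepatocyte and erythroid markers PTPRC, CD3E, CD68, LYZ, TTR and HBB had 0 to 4 counts in each of the 6 libraries, and the highest of the 16 listed markers of other cell types was COL1A1, at 20.7 to 33.3 CPM.

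Inclusion of CD46 exon 13 was lower with the CD46 guide than in every other library of the series. Inclusion is given as PSI (percent spliced in), the percent of the junction reads deciding the exon that include it, with its 95% Wilson interval, which covers counting error only. In RBM25_CD46 the PSI was 15.5% (11.6 to 20.3, 269 reads) in replicate 1 and 17.4% (13.6 to 21.97, 317 reads) in replicate 2. In RBM25_NT it was 37.6% (32.5 to 43.0, 324 reads) and 32.1% (27.8 to 36.7, 412 reads). In RBM25_MAPT it was 33.9% (28.6 to 39.7, 273 reads) and 28.0% (23.6 to 32.9, 354 reads). Neither RBM25_CD46 interval reached into that of any of the 4 comparators. Outside the RBM25 effector the exon was at 35.9% and 34.7% in dCasRx_NT, at 29.4% and 30.1% in RBFOX1N_NT and at 25.2% and 23.4% in RBFOX1N_MAPT. The intervals of both RBFOX1N_MAPT libraries (20.1 to 31.0 and 18.5 to 29.2) overlapped those of both RBM25_CD46 libraries.

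The mean PSI was 16.4% ± 1.37 (SD, n = 2) with the CD46 guide and 32.9% ± 4.01 (SD, n = 4) with the other guides, a 2.00-fold difference. In the quasi-binomial model fitted to all events the difference was -16.5 points (SE 2.22), with an unadjusted p of 4.96e-06. After Benjamini-Hochberg adjustment over all 100386 events in that quasi-binomial model it was 0.0996, which did not pass the threshold of 0.05. The exon ranked 5 by p among all events, and the 4 entries ahead of it describe 2 splice-site choices, in HES4 and DPP8. A difference of this size or more was seen in 182 events, or 0.181% of those tested. Against RBM25_NT alone the difference was -18.4 points (SE 2.60, quasi-binomial adjusted p = 0.0714), and against RBM25_MAPT alone it was -14.5 points (SE 2.68, quasi-binomial adjusted p = 0.607). These 2 comparisons share the RBM25_CD46 libraries. An exact permutation test over the 6 RBM25 libraries gave a two-sided p of 0.133, the smallest that 15 splits allow, and over all 12 libraries 0.0303, the smallest that 66 splits allow. Both tests treat single libraries as exchangeable, although these came in groups of 2, and the 12 also differ in effector. The p over 12 libraries therefore cannot separate the CD46 guide from other differences between groups.

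Both junctions of the exon carried fewer reads. The junction from exon 12 into exon 13 made up 13.4% and 17.9% of the reads that decide it in the RBM25_CD46 libraries, and 22.1% to 30.05% in the 4 comparators. For the junction from exon 13 to exon 14 these values were 18.8% and 18.2%, against 35.1% to 46.0%. Neither junction overlapped between the groups, and the junction out of the exon stood further apart. In raw reads, RBM25_CD46 replicate 1 had 30 reads into the exon, 45 out of it and 194 across it, and replicate 2 had 48, 49 and 220. RBM25_NT replicate 1 had 61, 121 and 142, and RBM25_NT replicate 2 had 78, 128 and 206. RBM25_MAPT replicate 1 had 56, 86 and 131, and RBM25_MAPT replicate 2 had 55, 105 and 194.

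The level of CD46 RNA as a whole did not differ detectably. CD46 was at 90.2 and 100.5 CPM in RBM25_CD46, at 96.1 and 95.4 CPM in RBM25_NT and at 84.1 and 109 CPM in RBM25_MAPT, so the groups overlapped. The fitted difference was -0.01 on the log2 scale (SE 0.10, edgeR's quasi-likelihood test, unadjusted p = 0.901). Its sign was positive without RBM25_CD46 replicate 1 (0.063) and without RBM25_MAPT replicate 2 (0.088). Multiplying each library's CPM by its PSI splits that level by exon 13. The exon 13 form came to 13.96 and 17.5 CPM with the CD46 guide and to 28.5 to 36.2 CPM in the comparators, means of 15.7 and 31.5 CPM (exact permutation p = 0.133). The skipped form came to 76.3 and 83.003 CPM against 55.6 to 78.7 CPM, and here RBM25_MAPT replicate 2 overlapped the RBM25_CD46 libraries (means 79.6 and 64.7 CPM, exact permutation p = 0.267).

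Besides exon 13, 13 splicing entries of CD46 had enough reads to be tested, and these share reads with one another. None was called at an adjusted p under 0.05 with a difference of 10 points in the quasi-binomial model (0.0% of all events were called), and 3 had an unadjusted p under 0.05, against 6.24% of all events. In 6 of the 13 the RBM25_CD46 libraries lay outside the range of the 4 comparators, 3 higher and 3 lower, against 13.2% of all events (6.01% higher and 7.19% lower). Their median absolute difference was 2.10 points, beside 0.838 points over all events.

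The entries with a low p lie next to exon 13, in exon 12 and in the intron that follows it. Use of the inner 3′ splice site of exon 12 (chr1:207785656-207785682) was 15.9% and 10.9% in RBM25_CD46, 7.42% and 6.25% in RBM25_NT and 9.03% and 4.96% in RBM25_MAPT. The groups did not overlap, but the site was read by 11 and 8 raw reads in the RBM25_CD46 libraries and by 4 to 6 in the comparators. The difference was 6.48 points (SE 2.78, quasi-binomial unadjusted p = 0.0245, adjusted p = 0.730), and the second entry at a low p is the main site of exon 12, its mirror image. Without RBM25_CD46 replicate 1 the difference was 3.98 points. Retention of the intron after exon 12 (chr1:207785683-207790252) was 3.82% and 2.39% in RBM25_CD46, 1.32% and 0.84% in RBM25_NT and 0.75% and 1.13% in RBM25_MAPT. Here too the groups did not overlap, with a difference of 2.10 points (SE 0.797, quasi-binomial unadjusted p = 0.0109, adjusted p = 0.664), and 1.38 points without RBM25_CD46 replicate 1. In RBFOX1N_NT, without the CD46 guide, retention of this intron was 2.56% and 2.59%, between the RBM25_CD46 values. Raw reads at its upstream and downstream ends were 4 and 15 in RBM25_CD46 replicate 1 and 7 and 7 in replicate 2. In the comparators each end had 1 to 5. The intron on the other side of exon 13 differed by 0.03 points (SE 0.937).

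The alternative stalk exons of CD46, further upstream, differed by at most 2.33 points. Exon 7 (chr1:207767607-207767651) differed by -0.78 points (SE 0.715), exon 8 (chr1:207767779-207767823) by -2.33 points (SE 2.56) and exon 9 (chr1:207770321-207770362) by 0.72 points (SE 1.72). Exon 8 was at 36.9% and 36.7% with the CD46 guide and at 38.2% to 40.4% with the others, just outside their range. Exons 5 and 6, which encode part of the complement-binding domains, differed by -1.53 and -2.07 points. The other tested introns, after exons 4, 6, 7 and 8, differed by 2.37, -2.63, -0.84 and 2.27 points. All of these had a quasi-binomial unadjusted p of at least 0.201.

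**Figure D1:**
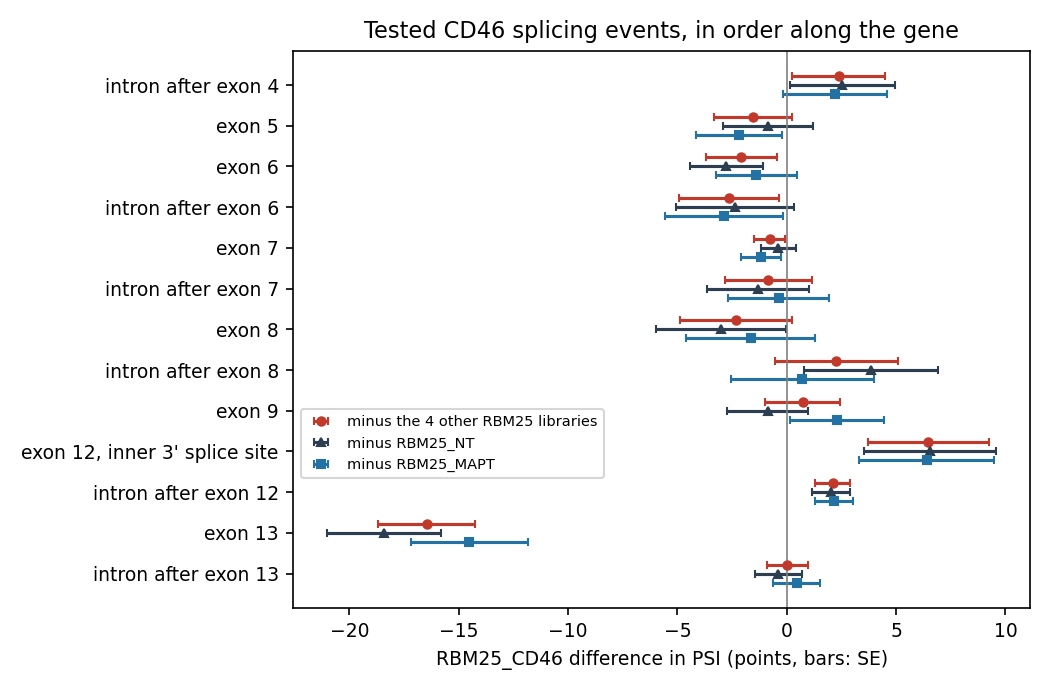
Difference in PSI (points) between the RBM25_CD46 libraries and the other RBM25 libraries for each tested CD46 event, in order along the gene, with bars for the SE. Exon 13 stands at -16.5 points, and the largest difference among the others is 6.48 points, at the 3′ sites of exon 12.

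At MAPT exon 10 and the tested entries of BCL2L1, no difference between RBM25_CD46 and RBM25_NT was detected. MAPT exon 10 (chr17:46010310-46010402), which distinguishes the 3-repeat and 4-repeat forms of tau, was at 2.94% and 2.80% in RBM25_CD46 and at 2.87% and 3.12% in RBM25_NT. In RBM25_MAPT it was at 39.6% and 46.1%. The difference of the RBM25_CD46 libraries was -0.13 points (SE 1.5) from RBM25_NT and -39.96 points (SE 3.23, quasi-binomial adjusted p = 0.000493) from RBM25_MAPT, so the comparison of all 4 comparators at this exon describes the MAPT guide. The 5 tested entries of BCL2L1, the apoptosis regulator with long and short isoforms, differed by at most 1.96 points. Their quasi-binomial unadjusted p ran from 0.778 to 0.931. These entries cover a 157 nt exon, 3′ splice sites 18 nt apart and 5′ splice sites 129 nt apart. The choice between the long and short isoforms was not identified among them. The 5′ splice sites were measured loosely (SE 7.34), with 1 site at 57.45% and 31.21% in RBM25_CD46 and at 36.97% to 47.61% in the comparators.

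Across the transcriptome, 0 of 100386 events in 10694 genes were called in the quasi-binomial model at an adjusted p under 0.05 with a difference of 10 points or more (0.0%). At an unadjusted p under 0.05 there were 6269 events (6.24%), of which 2437 were higher (2.43%) and 3832 lower (3.82%) with the CD46 guide, and limma on logit PSI also called 0 events. Without the minimum of 10 points 2 entries passed (0.00199%), both describing the same choice of site in HES4, and both had enough reads to be tested only through the RBM25_CD46 libraries. The count of called events was 4 without RBM25_CD46 replicate 1 and 3 without RBM25_CD46 replicate 2.

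**Figure D2:**
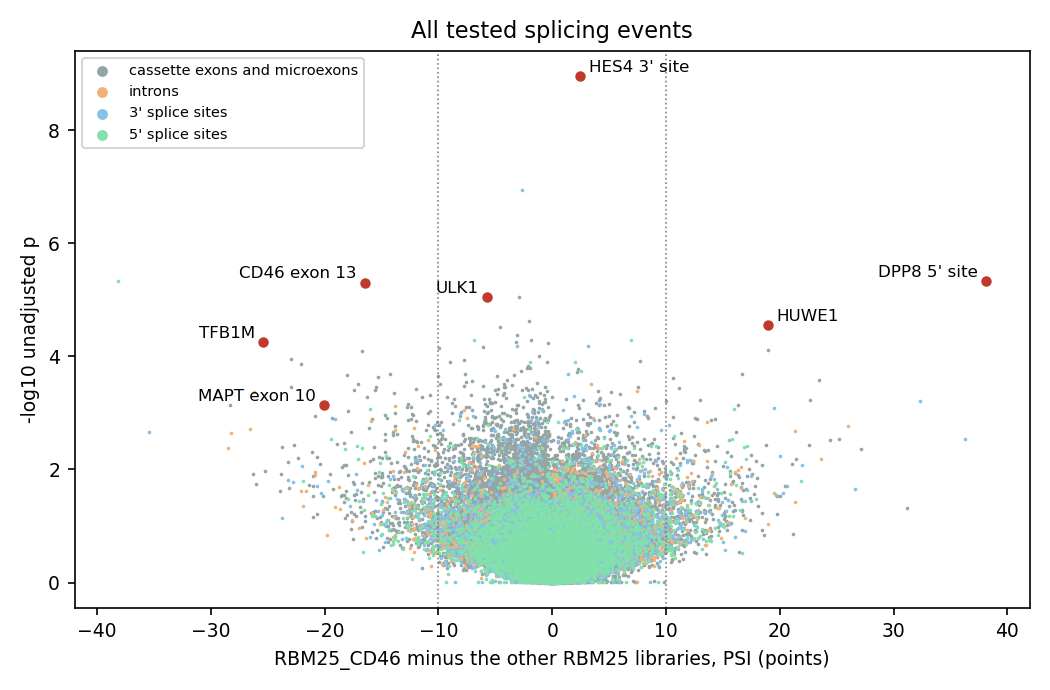
Each tested splicing event by its difference in PSI (points, RBM25_CD46 minus the other RBM25 libraries) and its -log10 unadjusted p in the quasi-binomial model, with the CD46 and named events marked and dotted lines at 10 points. CD46 exon 13 lies at -16.5 points, and the HES4 entries reach a lower p at differences of 2.47 and -2.67 points.

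HES4, a transcriptional repressor of the Hes family, used with the CD46 guide a 3′ splice site that was read in none of the other 10 libraries. The inner site lies 2 nt inside the exon (chr1:999533-999611, minus strand), and the start of that exon from the GENCODE v29 transcript (chr1:999554-999613, minus strand, GRCh38) is shown with those 2 nt in capitals.
HES4 exon: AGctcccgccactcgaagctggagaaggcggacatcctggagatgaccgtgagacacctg
The site took 36 of 1415 reads in RBM25_CD46 replicate 1, or 2.54% (95% Wilson interval 1.84 to 3.502), and 33 of 1374 reads in replicate 2, or 2.40% (1.72 to 3.35). In the other 10 libraries it had 0 reads, in 739 to 1819 reads each and 13444 in all, which allows a share of up to 0.165% to 0.406% per library, for counting error only. The difference was 2.47 points (SE 0.294), and the main site of that exon differed by -2.67 points (SE 0.413). Both entries met the filter of 24 reads of the less used form only through the reads of the RBM25_CD46 libraries, so they could enter the test only by differing, and the values are given as a description. The level of HES4 was 206 and 180 CPM with the CD46 guide and 115 to 292 CPM in the comparators, so it overlapped (log2 difference -0.15, SE 0.23, edgeR's quasi-likelihood test, unadjusted p = 0.523). In the 3 annotated transcripts whose coding sequence spans both sites, use of the inner site removes 2 nt and so shifts the reading frame.

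Among the other splicing differences of 10 points or more, several rested on few reads. The rule took events of lowest p with such a difference, groups that did not overlap and the same sign against both comparators. By it 572 of the 10694 genes with tested events qualified, and of all events 13.2% did not overlap. Among those genes of lowest p besides CD46 were DPP8, HUWE1, TFB1M, VPS13D, SH3YL1, ATG7, TRAF5 and ABTB2. None of these 8 was at an adjusted p under 0.05. That their groups did not overlap and that their sign was the same against both comparators was set by the rule.

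For 2 of these genes the PSI rests on single raw reads. DPP8, a dipeptidyl peptidase, had an inner 5′ splice site listed at 27.4% and 48.9% with the CD46 guide and at 0 in the comparators, from 1 and 3 raw reads of 46 and 56. The same site was listed at 30.3% and 23.3% in RBFOX1N_NT and at 27.4% in RBFOX1N_MAPT replicate 2. TFB1M, a methyltransferase of mitochondrial ribosomal RNA, had an exon (chr6:155285158-155285277) at 74.2% and 73.6% against 98.0% to 100%. Its raw skipping reads were 1 and 2 in the RBM25_CD46 libraries and 0 to 2 in the comparators, so the raw reads did not separate the groups. The TFB1M level itself was 16.8 and 15.7 CPM with the CD46 guide and 18.9 to 20.6 CPM in the comparators, without overlap (log2 difference -0.28, SE 0.09, edgeR's quasi-likelihood test, unadjusted p = 0.00553, adjusted p = 1.00).

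In 3 genes the exon was included more with the CD46 guide. The HUWE1 exon (chrX:53686270-53686368), in the gene of a large ubiquitin ligase, was at 96.2% and 100% in RBM25_CD46, at 68.8% and 78.4% in RBM25_NT and at 86.5% and 82.9% in RBM25_MAPT. It was skipped by 2 and 0 raw reads against 6, 13, 9 and 10. In dCasRx_NT, without RBM25, it was at 94.6% and 89.2%, and in the 4 RBFOX1N libraries at 85.1% to 88.2%. The VPS13D exon (chr1:12358459-12358601), in the gene of a lipid transfer protein, was at 100% in both RBM25_CD46 libraries, at 87.3% and 75.9% in RBM25_NT and at 81.0% and 80.0% in RBM25_MAPT. The TRAF5 exon (chr1:211359912-211360076), in the gene of an adaptor of TNF receptors, was at 100% in both, against 81.7% to 84.7%, from 0 skipping reads against 4 or 5. In RBFOX1N_NT it was also at 100% in both libraries.

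Lower inclusion was seen in 3 others. The SH3YL1 exon (chr2:233153-233229) was at 70.3% and 71.4% in RBM25_CD46, at 96.5% and 91.1% in RBM25_NT and at 83.5% and 79.5% in RBM25_MAPT, with 19 and 16 raw skipping reads against 2 to 12. The comparators also differed from each other there (quasi-binomial unadjusted p = 0.00157). The ATG7 exon (chr3:11313304-11313420), in the gene of the enzyme that activates ubiquitin-like proteins in autophagy, was at 90% and 75.9% against 94.8% to 100%. The ABTB2 exon (chr11:34154265-34154378) was at 87.9% and 69.1% against 94.5% to 97.8%. In both of these genes replicate 2 carried most of the difference, which was -7.21 points for ATG7 and -8.65 points for ABTB2 without it, as against -14.3 and -18.0 points with it. None of the last 6 genes changed in level at an adjusted p under 0.05 in edgeR's quasi-likelihood test.

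**Figure D3:**
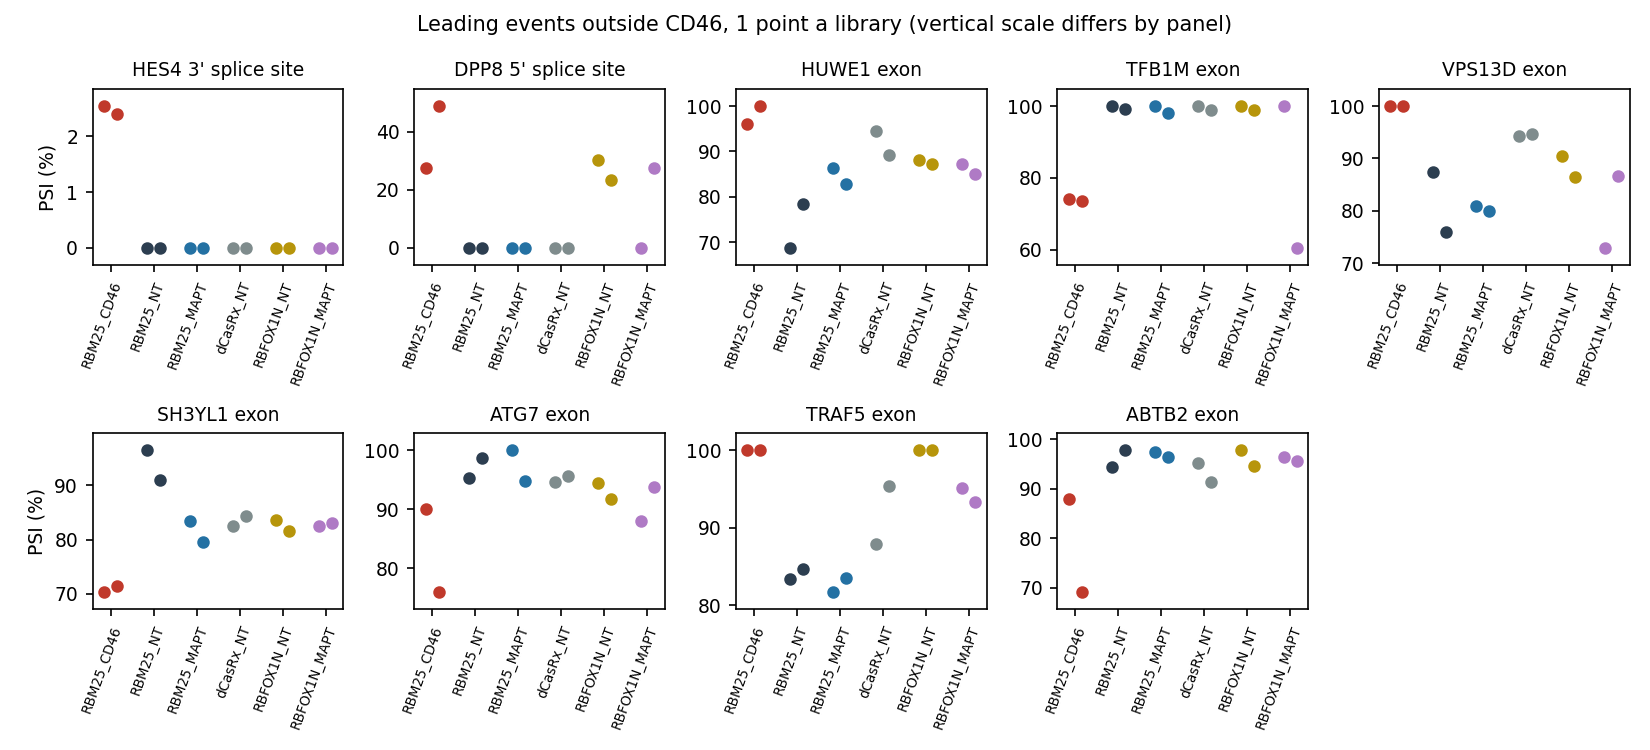
PSI in percent of HES4 and 8 other named events in each of the 12 libraries, by group. The RBM25_CD46 points lie outside the 4 comparators in each panel, by the rule that chose them for all but HES4, while for DPP8, TFB1M, ATG7 and TRAF5 some libraries without RBM25 reach the RBM25_CD46 values.

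The events named in an earlier account of these data were also read. SIDT2, a lysosomal membrane protein, had an exon (chr11:117189169-117189242) at 86.9% and 91.0% with the CD46 guide, at 93.3% and 93.1% in RBM25_MAPT and at 100% in RBM25_NT and in the 6 libraries without RBM25. The exon of PDS5A (chr4:39844697-39844801), a regulator of cohesin, differed by -1.58 points (SE 0.620). The MOV10 intron (chr1:112674730-112674831) was retained at 43.6% and 47.6% against 26.6% to 38.2%, a difference of 12.2 points (SE 4.48, quasi-binomial unadjusted p = 0.0117). The 6 libraries without RBM25 lay at 38.3% to 52.2% and so covered the RBM25_CD46 values. The ZFAND2B intron (chr2:219208349-219208425) was at 7.04% and 6.29% against 9.09% to 14.1%, and at 2.97% to 7.84% in the RBFOX1N libraries. Adjusted over all events in the quasi-binomial model, p was 0.471 for SIDT2, 0.557 for PDS5A, 0.673 for MOV10 and 0.788 for ZFAND2B.

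By event type, the low p-values lay mostly among cassette exons. Of 48370 cassette exons 9.46% had an unadjusted p under 0.05 in the quasi-binomial model, 6.31% lower and 3.15% higher with the CD46 guide. The share was 1.89% of introns, 4.65% of 3′ splice sites and 5.00% of 5′ splice sites. Of the 454 microexons 22 were higher (4.85%) and 8 lower (1.76%), beside 2.43% higher and 3.82% lower of all events. The median difference over all cassette exons was -0.07 points. Among those that differed by 10 points or more without overlap, 260 were lower and 180 higher, beside 425 lower and 343 higher among events of all types. At an unadjusted p under 0.05 in the quasi-binomial model, 2571 of the 48370 cassette exons were lower and 1764 higher against RBM25_NT. Of all 100386 events 3403 were lower and 2527 higher there. Against RBM25_MAPT 2564 cassette exons were lower and 1692 higher, and of all events 3340 were lower and 2647 higher. RBM25_MAPT against RBM25_NT, where no CD46 guide is involved, had 4182 of the 48370 cassette exons at an unadjusted p under 0.05 in the same model. Of all events 5842 were at that level there. For RBM25_CD46 against the comparators these counts were 4576 cassette exons and 6269 events. The 2653 lower exons with an annotated sequence had a median length of 122 nt and a median GC content of 50.4%, the 1309 higher ones 117 nt and 47.8%, and the other 36000 had 116 nt and 48.9%. The motif CGGGCA was in 3.20% of the lower, 2.14% of the higher and 2.42% of the other exons. The lower exons were also read more deeply. The median of the lowest read count in any library was 205 for them, 177 for the higher and 175 for the other exons.

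Gene expression with the CD46 guide was close to that with the other guides. Of 20593 genes tested, 0 (0.0%) were called at an adjusted p under 0.05 in edgeR's quasi-likelihood test, and DESeq2 also called 0. At an unadjusted p under 0.05 there were 607 genes (2.95%), of which 337 were higher (1.64%) and 270 lower (1.31%). The count of called genes was 34, all higher with the CD46 guide, without RBM25_MAPT replicate 1. RBM25 differed by 0.05 on the log2 scale (SE 0.16), MAPT by -0.09 (SE 0.10) and BCL2L1 by -0.08 (SE 0.08), and none of these had an unadjusted p under 0.3 in edgeR's quasi-likelihood test. The sign of RBM25 turned against RBM25_MAPT alone (-0.088), without RBM25_CD46 replicate 1 (-0.065) and without RBM25_MAPT replicate 1 (-0.029), and that of MAPT without RBM25_MAPT replicate 1 (0.0066).

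The genes of lowest p whose groups did not overlap are given as a description. APC2, a homologue of the tumour suppressor APC, was at 16.4 and 15.1 CPM in RBM25_CD46, at 11.5 and 12.5 CPM in RBM25_NT and at 10.1 and 8.02 CPM in RBM25_MAPT, a log2 difference of 0.59 (SE 0.11, edgeR's quasi-likelihood test, adjusted p = 0.876). MIR3648-1, a microRNA gene with a near-identical copy whose reads may be split between the copies, was at 8.04 and 5.90 CPM against 0.167, 1.23, 4.71 and 1.64 CPM (log2 difference 2.17, SE 0.39, adjusted p = 0.876 in the same edgeR test). CHRM4, a muscarinic receptor, was at 4.09 and 3.55 CPM against 2.08 to 2.75 CPM. ANKRD53 and the chemokine CCL5 were higher as well but lay under 0.5 CPM in all 6 dCasRx-RBM25 libraries. In the 6 libraries without RBM25, MIR3648-1 lay at 5.47 to 12.77 CPM, which covered the RBM25_CD46 values. CHRM4 lay there at 3.86 to 5.698 CPM, a range that held 1 RBM25_CD46 value and lay above the other. APC2 was at 9.12 and 9.01 CPM in dCasRx_NT. In the 4 RBFOX1N libraries APC2 was at 13.93 to 16.99 CPM, which covered the RBM25_CD46 values.

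On the lower side, CTH, which makes cysteine from cystathionine, was at 35.7 and 33.6 CPM in RBM25_CD46, at 39.4 and 40.2 CPM in RBM25_NT and at 48.0 and 50.1 CPM in RBM25_MAPT (log2 difference -0.35, SE 0.07). DNAJB9, a chaperone partner of the endoplasmic reticulum, was at 10.0 and 11.1 CPM against 14.7, 12.6, 15.5 and 14.9 CPM (log2 difference -0.45, SE 0.10). SAT1, which acetylates spermidine and spermine, was at 13.97 and 14.98 CPM against 20.7, 17.8, 19.5 and 19.0 CPM (log2 difference -0.41, SE 0.11). For all 3 the adjusted p in edgeR's quasi-likelihood test was 1.00. RNF212B and ENSG00000239415 were lower too, at under 0.4 CPM in these 6 libraries. In the 6 libraries without RBM25, DNAJB9 lay at 9.58 to 13.6 CPM and SAT1 at 13.1 to 18.6 CPM, which covered the RBM25_CD46 values. CTH lay there at 35.8 to 46.0 CPM, just above them.

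Some genes stood apart from 1 comparator and not from the other. SAP30, a subunit of the SIN3 histone deacetylase complex, was at 20.9 and 20.1 CPM in RBM25_CD46, at 10.6 and 12.6 CPM in RBM25_NT and at 22.8 and 16.1 CPM in RBM25_MAPT. Its log2 difference was 0.82 from RBM25_NT and 0.07 from RBM25_MAPT. CHASERR, a long noncoding RNA next to CHD2, differed by 0.82 and 0.05 in the same order, and ENSG00000289281 by 2.58 and -0.01. For SAP30 and CHASERR the RBM25_CD46 libraries resembled RBM25_MAPT in level, and the low values were those of RBM25_NT. ENSG00000289281 was at 1.34 and 1.85 CPM in RBM25_CD46 and at 0.167 and 0.346 CPM in RBM25_NT. Its RBM25_MAPT libraries lay far apart, at 2.64 and 0.527 CPM, so only their mean resembled RBM25_CD46. TXNDC5, a protein disulfide isomerase, was at 4.38 and 4.83 CPM, between RBM25_NT (2.08 and 3.23 CPM) and RBM25_MAPT (6.69 and 5.30 CPM).

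**Figure D4:**
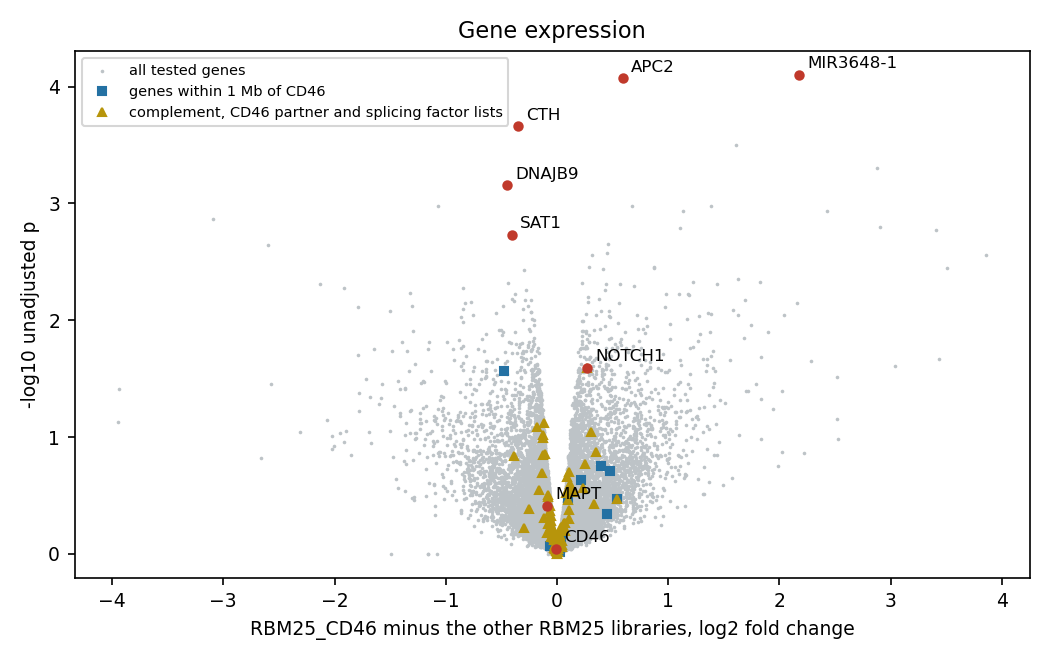
Each tested gene by its log2 fold change (RBM25_CD46 minus the other RBM25 libraries) and its -log10 unadjusted p in edgeR's quasi-likelihood test, with the named genes marked. CD46 lies at -0.01, and no gene passed an adjusted p of 0.05.

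The complement system, in which CD46 acts, was level between the guides. Of 35 genes listed as complement regulators and components 20 were expressed enough to test, and 0 of these had an unadjusted p under 0.05, against 2.95% of all genes. Their median log2 difference was -0.00, as was that of all genes at 0.00. CD55, which speeds the decay of the complement convertases, was at 57.6 ± 0.97 CPM (SD, n = 2) with the CD46 guide and at 58.3 ± 3.16 CPM (SD, n = 4) with the others. Groups did not overlap for 4 of the 20, 3 higher and 1 lower, against 5.22% and 6.59% of all genes. SERPING1, the C1 inhibitor, was at 2.63 and 2.09 CPM against 1.82 to 1.98 CPM.

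Partners of CD46, its Notch ligand and receptors, the proteases that shed it, gamma-secretase, and its kinases, integrins and tetraspanins, were all tested. Of these 31 genes 1 had an unadjusted p under 0.05 (2.95% of all genes did) and did not overlap (11.8% of all genes did not), NOTCH1. This receptor was at 88.6 and 78.8 CPM in RBM25_CD46, at 75.8 and 72.3 CPM in RBM25_NT and at 75.6 and 53.9 CPM in RBM25_MAPT (log2 difference 0.27, SE 0.11, edgeR's quasi-likelihood test, unadjusted p = 0.0255, adjusted p = 1.00). Its list had a median log2 difference of -0.01.

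Splicing factors were read at the level of their own RNA. Of 8 factors, those reported to regulate this exon together with the TIA proteins, 0 had an unadjusted p under 0.05 in edgeR's quasi-likelihood test. Of all tested genes 2.95% were at that level, the share to set beside each count of this paragraph. The log2 differences of the 8 factors ran from -0.12 to 0.11. SRSF1, an SR protein, differed by 0.11, and PTBP1, a repressor of exons, by -0.01. Among 14 SR proteins 1, SRSF8, had an unadjusted p under 0.05 (0.16 on the log2 scale), and among 27 hnRNP and PTB proteins and 23 U1 snRNP and RBM25-related factors 0 did, with medians of -0.04 and -0.03. Of 25 RBFOX, MBNL, CELF and QKI factors 19 were tested, again with 0 at that level and a median of 0.06.

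The genes around CD46 on chromosome 1 were read as its nearest neighbours. Of 43 annotated genes that start within 1 Mb of CD46, 13 were tested, and 0 were called in edgeR's quasi-likelihood test, with log2 differences from -0.48 to 0.54 and a median of 0.03. The 1 gene with an unadjusted p under 0.05, a level that 2.95% of all tested genes reached, was MIR29B2CHG, the host gene of microRNAs. It was at 1.00 ± 0.03 CPM (SD, n = 2) against 1.40 ± 0.12 CPM (SD, n = 4), a log2 difference of -0.48 (unadjusted p = 0.0269 in that edgeR test).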

How the data were processed

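Poly(A) RNA of 12 HEK293T libraries was sequenced as 150 nt read pairs from a directional kit, per the labels' protocols, and libraries were grouped by title. The authors deposited whole-number read counts for 62710 genes, of which 62639 matched a symbol. Per the submitters' processing notes, which give no roles, STAR 2.7.10, edgeR and the build hg38 were used. Which annotation and strand setting the counting had is not stated, so overlapping and antisense genes are uncertain. The authors also deposited PSI in percent for 721551 splicing events, with other text fields beside each percent that hold quality scores, raw junction reads and corrected inclusion and exclusion reads, per the file headers and cell layout. The layout is that of vast-tools, in a version that is not stated. The deposited percent lay within 0.05 points of the one computed from those reads in 99.2% of 6458113 values.

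Events with at least 20 reads in every library and 24 reads of the less used form were fitted with a quasi-binomial model of the 6 group means over all 12 libraries, with a moderated Pearson dispersion (prior degrees of freedom 9.97) held at 1 or above, two-sided F tests and p-values adjusted by Benjamini and Hochberg over 100386 events. An event was called at an adjusted p under 0.05 and 10 points or more. The Pearson dispersion was preferred to the deviance after both had been run. The corrected reads weight each raw read for mappability, so a PSI can rest on fewer raw reads than its total implies. Expression was fitted to the counts by edgeR 4.0.16 under R 4.3.3 (TMM factors, filterByExpr, glmQLFit, glmQLFTest, two-sided, Benjamini-Hochberg over 20593 genes), also over all 12 libraries. The contrast was the RBM25_CD46 mean minus the average of the RBM25_NT and RBM25_MAPT means. CPM uses TMM-scaled library sizes, except for the marker check, which uses total counts. DESeq2 1.42.0 and limma 3.58.1 were alternatives. Both models were tested on simulated data.

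Replicates are 2 per group, and p-values measure the spread between these libraries, which may be technical. Named events were those of CD46, MAPT exon 10, BCL2L1, those called, the lowest p among events with 10 points, no overlap and one sign against both comparators (1 a gene, to 10), and 4 from an earlier account. Named genes were CD46, MAPT, BCL2L1, RBM25, the 5 of lowest p per direction without overlap, 4 from that account and the 2 of lowest p per list. Names outside this rule (HES4 main site, DPP8, TFB1M and INTS14 second entries, ULK1, USP36, and the levels of CD55, SRSF1, PTBP1 and TFB1M) were chosen after their values were seen. The libraries compared and the gene lists were chosen with earlier results of these data known. Sequences are from GENCODE v29. Some results that these rules name are not reported here.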

Additional observations from a re-analysis of the deposited data

Results flagged for a closer look

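Of 31 values screened over the 4 comparator libraries, 1 had a library far from the other 3 by Dixon's test, where chance marks about 1 in 20. NOTCH1, a CD46 partner, was at 53.9 CPM in RBM25_MAPT replicate 2, while the other comparators lay at 72.3 to 75.8 CPM and the RBM25_CD46 libraries at 78.8 and 88.6 CPM. Without that library the log2 difference of NOTCH1 was 0.16 in place of 0.27. The 2 RBM25_MAPT libraries also differed more from each other over all genes than the replicates of any other group. The mean chi-square per gene between replicates, taken against counting error, was 32.3 in RBM25_MAPT, 14.55 in RBM25_NT and 5.91 in RBM25_CD46.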

How the results depend on the processing

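The lower inclusion of CD46 exon 13 kept its direction and an unadjusted p of at most 0.00167 under all 16 alternatives, with -18.4 to -14.5 points, and -17.9 to -15.0 points when any 1 library was left out. Its p adjusted over all events, 0.0996, ranged from 0.0397 to 0.607 in the quasi-binomial fits, was 0.335 with the deviance dispersion, an alternative added after seeing the data, and 0.824 with limma on logit PSI. Leaving out 1 library gave 0.0980 to 0.491.

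With the replicate number as a block, the adjusted p of exon 13 was 0.0397 and 8 events were called (among them CD46 exon 13, 3 entries of TP53BP1 and 2 of DPP8), with 16 at an adjusted p under 0.05 of any size. The labels do not say that a number marks a shared day or batch. Differences between replicates 1 and 2 correlated between groups at 0.319 to 0.416 over genes and at 0.0016 to 0.0317 over PSI values.

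The count of called events, 0, was 1 against RBM25_MAPT alone (MAPT exon 10), 5 with the RBM25 libraries only (3 of TFB1M, 2 of DPP8), 2 with no minimum difference and 0 to 4 when 1 library was left out. The count at any size, 2, was 7 with the RBM25 libraries only, 1 with limma and 1 to 13 when 1 library was left out. Called genes, 0, were 8 with no filter on low counts and 0 to 34 when 1 library was left out, and 0 with DESeq2 and with RLE size factors. The log2 difference of CD46 ranged from -0.10 to 0.088 when 1 library was left out, that of RBM25 from -0.065 to 0.15 (-0.088 against RBM25_MAPT alone) and that of MAPT from -0.17 to 0.0066. Of 418 values for 29 named results, 403 kept direction and side of the threshold, 11 passed it only under the alternative and 4 changed sign. The cause of these changes was not tested. Depth limits the inner site of CD46 exon 12, which rests on 4 to 11 raw reads of 111 to 147 a library. It also limits retention of the intron after exon 12, which rests on 1 to 15 raw reads at each end in the dCasRx-RBM25 libraries.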

Other observations

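Groups of genes outside the splicing and complement lists were read for the RBM25_CD46 libraries against the 4 comparators, and in each list 0 genes were called in edgeR's quasi-likelihood test, with the counts at an unadjusted p under 0.05 given here, beside 1.64% higher and 1.31% lower of all genes at that level. Of 28 stress genes of the endoplasmic reticulum and the integrated stress response 2 were lower at that level, DNAJB9 and ASNS, the asparagine synthetase, and 7 lay below the range of the comparators, against 6.59% of all genes. ASNS was at 6.62 and 6.31 CPM against 7.59 to 9.53 CPM. Of 27 tested p53 targets 1, PLK2, was higher at that level, and 24 had a positive log2 difference (10340 of all 20593 genes did). Above the range of the comparators lay 5 of the 27, against 5.22% of all genes, and the list had a median of 0.09. PLK2, a polo-like kinase, was at 15.8 and 15.6 CPM against 12.0 to 15.3 CPM. Of the 13 mitochondrially encoded mRNAs 0 passed that level, but 7 lay above the range of the comparators, against 5.22% of all genes, with a median of 0.17. MT-CYB, which encodes cytochrome b, was at 2285 and 2188 CPM against 1437 to 2071 CPM.

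At the same unadjusted p under 0.05 in edgeR's quasi-likelihood test, 1.64% of all genes were higher and 1.31% lower. Of 33 immediate early genes 2, EGR2 and EGR3, were higher at that level, and EGR2 was at 3.52 and 2.90 CPM against 1.90 to 2.31 CPM. Of 34 tested interferon response genes 2, IFIT3 and IFIH1, were higher, and IFIT3 was at 1.05 and 0.544 CPM against 0.25 to 0.442 CPM. Of 19 nonsense-mediated decay factors and targets 1 was lower, GAS5, and of 30 tested histone genes 1, H4C3. Of 12 tested kidney and HEK293T genes 1 was higher, LHX1. Of 7 tested markers of other cell types 0 passed, and none lay outside the range of the comparators.

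Small splicing differences with a low p were outside the rule for 10 points. ULK1, the kinase that starts autophagy, had an exon (chr12:131913198-131913258) at 94.0% and 91.0% with the CD46 guide and at 96.0% to 100% in the comparators, and at 85.6% to 92.3% in the 6 libraries without RBM25 (quasi-binomial adjusted p = 0.130). USP36, a nucleolar deubiquitinase, had an exon (chr17:78814412-78814552) at 96.4% and 97.3% against 99.6% to 100%, and at 99.0% to 100% in the libraries without RBM25 (quasi-binomial adjusted p = 0.130). An exon of INTS14, a subunit of the Integrator complex, differed by -2.02 points (SE 0.397, quasi-binomial adjusted p = 0.299), at 97.1% and 97.3% with the CD46 guide and at 96.9% to 98.2% in the libraries without RBM25. Its inner 3′ splice site, listed at 3.40% and 2.86%, rested on 1 raw read in each RBM25_CD46 library.

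The 34 genes called without RBM25_MAPT replicate 1 included UNCX (0.92 on the log2 scale), CBARP (0.62), CHCHD10 (0.58) and APC2 (0.68), chosen after their values were seen.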
